A study of Drosophila melanogaster with 2 samples.

Results

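The genes CG11050, hll, CG13323, CG31668 and CG4213 of Drosophila melanogaster were the protein-coding genes whose transcript starts lay nearest to 5 of the strong distal peaks in chromatin immunoprecipitated with Arrowhead (Awh). They were picked for the signal that the authors' peak caller gave to peaks more than 500 bp from any protein-coding start, so the high signal itself is given below as a description and without a test. Of the 5024 peaks of the stricter, conservative list that lay on the 6 chromosomes used, 9 had a start of these 5 genes as the nearest, and 8 of these 9 were distal, among 3416 distal peaks in all. The list assigned at least 1 peak to 2871 of 13945 protein-coding genes, with a median of 1 peak per gene. CG11050 had 2 peaks, hll 3, CG13323 and CG31668 1 each, and CG4213 2.

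Chromatin immunoprecipitation followed by sequencing was carried out on whole embryos aged 0 to 24 h of the strain labelled Awh-GFP, transgenic flies that express an Awh-eGFP fusion protein. The 2 samples were biological replicates 1 and 2 of 1 group, from separate biosamples, and no other genotype, treatment or control library was part of the data analysed here. A free-text label gives an anti-GFP antibody while the antibody field names Awh, and sonication gave fragments of 200 to 800 bp. All cell types and all embryonic stages were mixed in each sample, no source used here gives the promoter that drives the fusion, and the peak lists carry no read totals, so the depth is unknown. With 2 replicates of 1 group no comparison between conditions exists, and each SD given with n = 2 is the spread between the 2 samples.

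Arrowhead is a LIM-homeodomain transcription factor that is known in the fly for its role in setting up the histoblasts of the abdomen and the imaginal ring of the salivary gland, groups of precursor cells of adult tissue. LIM-homeodomain proteins bind short sites rich in A and T around a TAATTA core. A gene assigned by the nearest start is a bookkeeping label, since a distal element can act on another gene, and a start of a noncoding RNA can lie closer than any protein-coding start.

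The sequence around the summits is printed for some of the 9 peaks, with and without the sites marked below, and likeness between the windows was not measured. The windows of CG13323 and of the further CG11050 and hll peaks are not printed. Each run covers 100 bp on either side of a summit, the base with the highest enrichment, read 5′ to 3′ on the plus strand of the RefSeq Release 6 assembly, the assembly behind dm6. Capitals mark TAATTA and CACTG, or CAGTG, the reverse complement of the latter. The choice of CACTG was made after the sequences and the site results had been seen. The runs span chr2L:6612620-6612820, chr2L:14023991-14024191, chr2L:2202306-2202506, chr2L:392660-392860 and chr2L:390604-390804, in this order.
CG11050 peak 1: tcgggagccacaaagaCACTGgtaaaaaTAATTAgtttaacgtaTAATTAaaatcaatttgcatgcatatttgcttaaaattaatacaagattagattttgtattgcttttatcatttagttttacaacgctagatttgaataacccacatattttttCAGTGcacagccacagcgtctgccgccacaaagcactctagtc
hll peak 1: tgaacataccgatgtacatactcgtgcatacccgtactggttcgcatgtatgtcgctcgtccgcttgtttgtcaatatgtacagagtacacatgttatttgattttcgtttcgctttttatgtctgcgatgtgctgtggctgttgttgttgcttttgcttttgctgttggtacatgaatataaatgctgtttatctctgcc
CG31668 peak 1: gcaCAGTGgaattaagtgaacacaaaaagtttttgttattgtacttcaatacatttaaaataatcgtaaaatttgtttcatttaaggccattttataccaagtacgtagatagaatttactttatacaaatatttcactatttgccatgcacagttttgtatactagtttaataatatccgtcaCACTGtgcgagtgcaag
CG4213 peak 1: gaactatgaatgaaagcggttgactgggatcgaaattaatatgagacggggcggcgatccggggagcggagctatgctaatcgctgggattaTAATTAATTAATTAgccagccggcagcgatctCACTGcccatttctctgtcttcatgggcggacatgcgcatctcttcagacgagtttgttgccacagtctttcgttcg
CG4213 peak 2: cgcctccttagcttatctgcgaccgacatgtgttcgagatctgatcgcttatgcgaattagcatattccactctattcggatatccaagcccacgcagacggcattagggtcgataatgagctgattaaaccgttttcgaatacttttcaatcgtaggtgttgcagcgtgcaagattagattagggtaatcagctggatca
The CG11050 run holds separate TAATTA copies left of its summit, and the stronger CG4213 run holds overlapping copies across it. The hll run and the weaker CG4213 run hold neither marked site.

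CG11050 (FBgn0031836, chr2L:6611011-6617117, plus strand) is an uncharacterized protein-coding gene. Its strongest peak (chr2L:6612557-6612865, summit at 6612720) had a signal of 1419.7 and ranked first among distal peaks and 2 in the whole list. In replicate 1 the peak reached 806, rank 3 of 118176 candidates, and in replicate 2 it reached 595, rank 4 of 89289 candidates. The mean was 700.2 ± 149 (SD, n = 2), and both replicates placed the peak among their highest, with summits 11 and 12 bp to the left. The summit lay 1033 bp downstream of the nearest of the gene's 3 transcript starts, in intron 2 of all 3 transcripts, an intron of only 140 bp at 6612641 to 6612780.

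That intron is shorter than the peak. The 309 bp of the peak covered all 140 intron bases and 169 exon bases, of which 160 were coding. The exon on the left ended at -80 and the exon on the right began at 61, counted from the summit as 0. Of the searched sites, the TAATTA copies lay inside the intron at -72 to -67 and -56 to -51. The CACTG at -84 to -80 was the end of the exon on the left, and the one at 58 to 62, on the minus strand, spanned the border between the intron and the exon on the right, so both adjoined splice sites. The nearest start of a noncoding gene, lncRNA:CR44913, was 6360 bp away.

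The neighbours of CG11050 are Dpp10, 11652 bp to the left of the summit, and DIP-iota, which encodes a cell-surface protein of the immunoglobulin superfamily, 4414 bp to the right. Within 10 kb of the summit, replicate 1 had 25 candidate peaks and replicate 2 had 14. The next strongest candidate was the second CG11050 peak in both (46.1 in replicate 1, 35.7 in replicate 2). The strong peak thus exceeded it 17.5-fold in replicate 1 and 16.7-fold in replicate 2. The second peak (chr2L:6610646-6610975) lay 200 bp upstream of the first transcript start and was therefore a promoter peak and not a distal one. Its signal was 83.4, rank 3448 in the list, and it passed the threshold in replicate 1's own list only.

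The gene hll, or heimdall (FBgn0286723, chr2L:14027001-14029368, plus strand), encodes an acyl-CoA synthetase related to bubblegum, and bubblegum (bgm) lies on the other side of the peak. Its strongest peak (chr2L:14023937-14024226, summit at 14024091) had a signal of 1168 and ranked 2 among distal peaks and 7 in the list. The signal was 519.7 in replicate 1, rank 19, and 656 in replicate 2, rank 2. Here replicate 2 was the higher, the opposite order to CG11050, with a mean of 588 ± 96.3 (SD, n = 2). The summit was 2910 bp upstream of the hll start.

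The hll summit was distal only with respect to protein-coding genes. It lay inside lncRNA:CR31840 (FBgn0051840, chr2L:14023722-14024099, minus strand), a long noncoding RNA of 1 exon transcribed away from hll, and 8 bp from its start. Of the 8 distal peaks of the 5 genes, 1 had a noncoding start within 500 bp, against 4.68% of all distal peaks (160 of 3416). With starts of every gene type counted, the strongest peak would have been a promoter peak of lncRNA:CR31840, and 1 of the 3 peaks would have stayed with hll. To the left lay lncRNA:CR45352, 2058 bp away, then the noncoding gene asRNA:CR44849, whose right end was at -3766 bp, and NimC3, a gene of the Nimrod family of phagocytosis receptors, 3883 bp away, which was the nearest protein-coding gene on that side.

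Further peaks of hll were weak. The second (chr2L:14025833-14026162) lay 1003 bp upstream of the start with a signal of 74.8, and the third (chr2L:14024826-14025155) 2010 bp upstream with 46.6. In replicate 1 these had 43.8 and 33.7, and in replicate 2 they had 33.3 and 34.0. Neither passed the threshold in either replicate's own list, and both were 330 bp wide, the width of 3050 of the 3416 distal peaks (89.3%). Within 10 kb of the strongest summit the next candidate differed between replicates. Replicate 1 had 133 at -1824 bp and replicate 2 had 73.5 at -3052 bp, which the strongest peak exceeded 3.92-fold and 8.93-fold.

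CG13323 (FBgn0033788, chr2R:13044695-13047256, minus strand) is an uncharacterized gene, and of the 5 strongest peaks its single peak lay farthest from the start it was assigned to. The peak (chr2R:13035220-13035455, summit at 13035347) had a signal of 1132, rank 3 among distal peaks and 11 in the list. Its signal was 605 in replicate 1, rank 9, and 509 in replicate 2, rank 13, a mean of 557 ± 68.4 (SD, n = 2). Both replicates placed the summit on the same base as the joint list. The distance to the CG13323 start was 11909 bp, against a median of 3858.5 bp over all distal peaks and a 75th percentile of 8976 bp.

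No annotated gene overlapped the CG13323 peak. The summit was 9348 bp beyond the 3' end of CG13323, and on the other side 27436 bp from the body of Su(z)2, a Polycomb group gene next to its relative Psc. The nearest noncoding start, that of lncRNA:CR44339, was 49980 bp away, and the nearest annotated transposable element, of the INE-1 family, 5764 bp away. Within 10 kb the next candidates reached 36.2 in replicate 1 and 26.1 in replicate 2, so that the peak exceeded them 16.7-fold and 19.5-fold. A distal peak assigned to Psc itself, ranked 13 with a signal of 659, lay 140 bp from the start of lncRNA:CR44339.

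CG31668 (FBgn0051668, chr2L:2203721-2206166, minus strand) carries in RefSeq a synonym that places it among the solute carriers of the sodium-coupled type. Its single peak (chr2L:2202275-2202533, summit at 2202406) had a signal of 930.8, rank 5 among distal peaks and 20 in the list. Among the 5 strongest peaks the replicates were closest here, with 480.3 in replicate 1, rank 21, and 453 in replicate 2, rank 22, a mean of 467 ± 19.1 (SD, n = 2). The summit lay 3760 bp from the start and 1315 bp beyond the 3' end of the gene. The start of COX7AL2, on the left, was 4494 bp away, so the assignment to CG31668 rested on a difference of less than 1000 bp. The next candidates within 10 kb reached 70.5 in replicate 1 and 79.7 in replicate 2, which the peak exceeded 6.81-fold and 5.69-fold.

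CG4213 (FBgn0031251, chr2L:396595-402198, minus strand) is an uncharacterized gene, and the nearest-start rule gave it a pair of peaks. The stronger (chr2L:392609-392876, summit at 392760) had a signal of 534, rank 38 among distal peaks and 92 in the list, and the other (chr2L:390651-390816, summit at 390704) a signal of 334, rank 118 among distal peaks. In replicate 1 the stronger stood at 231, rank 140, and in replicate 2 at 302, rank 56, a mean of 266 ± 50.1 (SD, n = 2). The other had 122 in replicate 1 and 212 in replicate 2, a mean of 167 ± 63.2 (SD, n = 2). Both were therefore higher in replicate 2, and each stood in both replicates' own lists. Within 10 kb of the stronger summit the weaker peak was the next candidate in both replicates, and the stronger exceeded it only 1.89-fold and 1.43-fold.

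The CG4213 pair lay between the 3' ends of converging genes. The stronger summit was 9294 bp from the nearest CG4213 start and 3835 bp beyond the gene's 3' end. On the left, the body of al (aristaless), a homeodomain gene of limb and antenna patterning, ended 5321 bp from the stronger summit and 3265 bp from the weaker one. The al start was 14648 bp from the stronger summit, which is why the nearest start belonged to CG4213. The start of lncRNA:CR43718 was 3360 bp from the stronger summit and 5416 bp from the weaker. With starts of every gene type counted, 0 peaks would have stayed with CG4213.

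**Figure D1:**
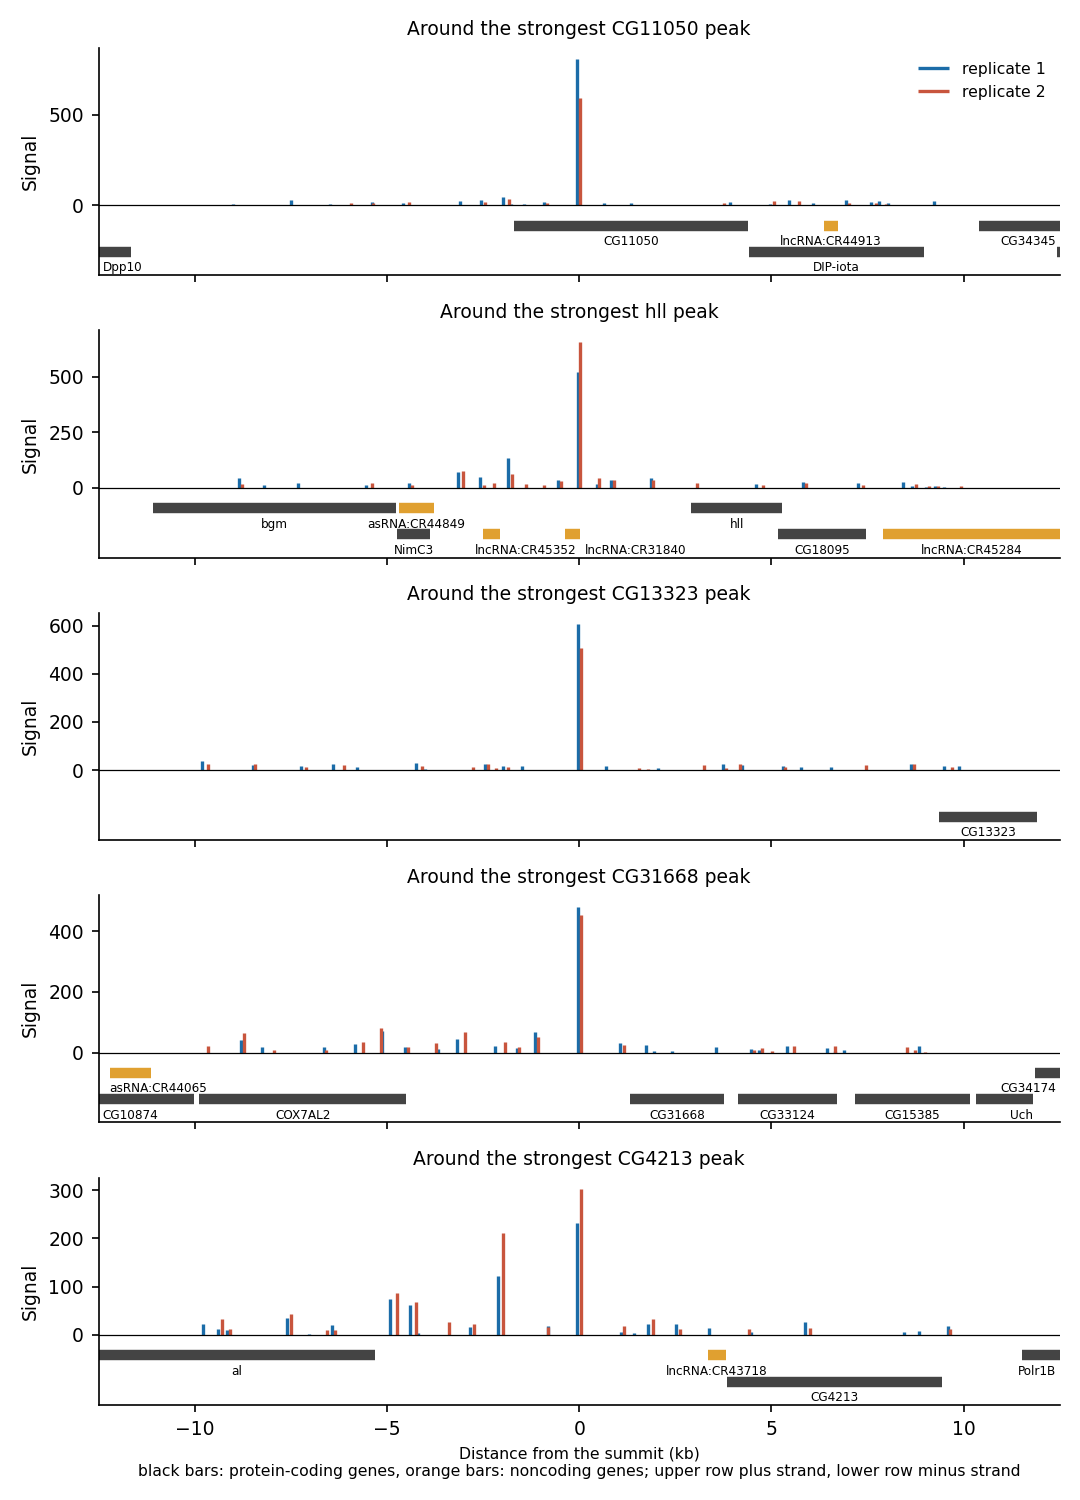
Signal of every candidate peak within 10 kb of the strongest summit of each gene (vertical axis, the authors' signal, blue for replicate 1 and red for replicate 2, drawn slightly apart) against distance from that summit in kb, with protein-coding genes as black bars and noncoding genes as orange bars, plus strand above minus strand. The CG11050 and CG13323 summits stand 16.7-fold to 19.5-fold above their next candidate in each replicate, while CG4213 has a second peak of 122 and 212 at about 2 kb to the left.

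By rank, 4 of the 5 strongest peaks were among the 5 highest of all distal peaks, as the choice of genes made them. The peak nearest to tara ranked 4 with a signal of 1023, between CG13323 and CG31668, and was not among those picked. Next below CG31668 came the peaks nearest to CG32772 with 858, Tlk with 832, cno with 802 and eEF1gamma with 736. CG4213 stood apart in this order, since 33 of the 37 distal peaks above it belonged to other genes. The peak directly above it, nearest to CycB, had 536, and the 5 directly below it, nearest to mub, pigs, sp3, for and S, had 529, 519, 511, 506 and 491. Over all distal peaks the median signal was 99.0, with quartiles of 77.9 and 141 and a lowest value of 2.20.

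**Figure D2:**
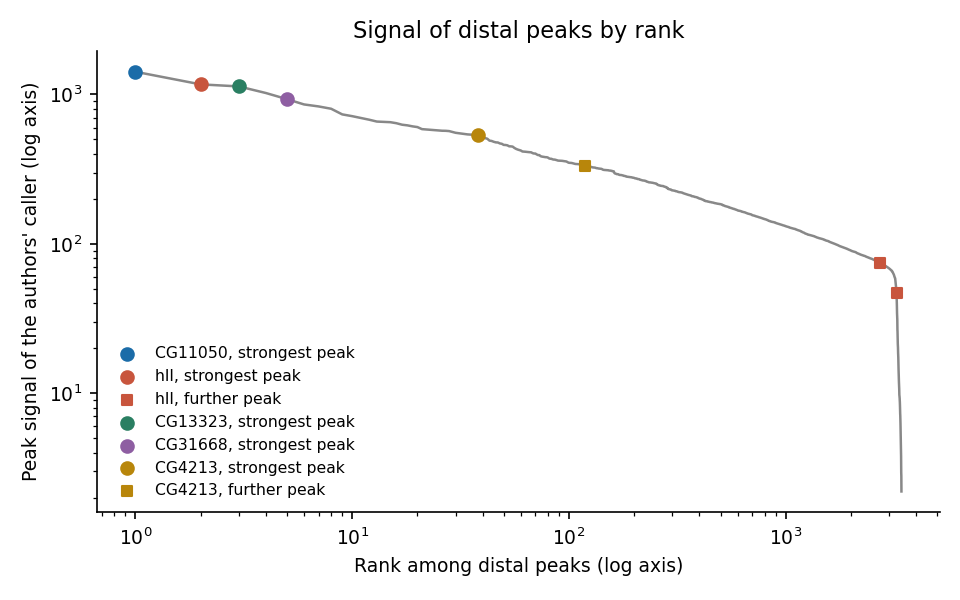
Signal of the 3416 distal peaks (grey line, log axis) against their rank (log axis), with the strongest peak of each gene as a circle and further distal peaks of hll and CG4213 as squares. Circles sit at ranks 1, 2, 3, 5 and 38, and the squares at 118, 2714 and 3245.

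Between replicates, the log2 ratio of replicate 1 to replicate 2 was 0.44 at the strongest CG11050 peak, 0.25 at CG13323 and 0.08 at CG31668, and it was -0.34 at hll and -0.39 at CG4213. Replicate 1 was thus the higher at 3 of the 5. Over the 3383 distal peaks with a candidate in both replicates the median ratio was -0.01 with an SD of 0.49, and over the 100 strongest it was 0.14 with an SD of 0.39. All 5 ratios lay within 1 SD of the median over all distal peaks, which spans -0.50 to 0.48. Within the narrower span of the 100 strongest, -0.25 to 0.52, lay CG11050, CG13323 and CG31668, while hll and CG4213 were below it. The weaker CG4213 peak had a ratio of -0.79, below both spans.

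Each replicate's list also gave 2 further calls for every candidate, whose origin no source used here states. At the 5 strongest peaks the 2 calls together came close to the replicate's own signal, so that each was lower shows nothing further. At CG11050 they were 372 and 426 in replicate 1 and 291 and 291 in replicate 2. At hll they were 249 and 272 in replicate 1 and 331 and 319.5 in replicate 2. For these genes, 2 of the 5, the calls of the replicates did not overlap, against 37.4% of distal peaks (1266 of 3383) and 54 of the 100 strongest. At CG13323 they were 273 and 329.6 in replicate 1 and 219 and 277 in replicate 2, and at CG31668 256 and 218 in replicate 1 and 223 and 227 in replicate 2. The calls of the replicates overlapped at both of these. At CG4213 they were 143 and 85.9 in replicate 1 and 153 and 140.02 in replicate 2, again overlapping. Since the calls may not be independent of the replicate's own signal, their overlap is described only. No agreement or difference between replicates is read from it.

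**Figure D3:**
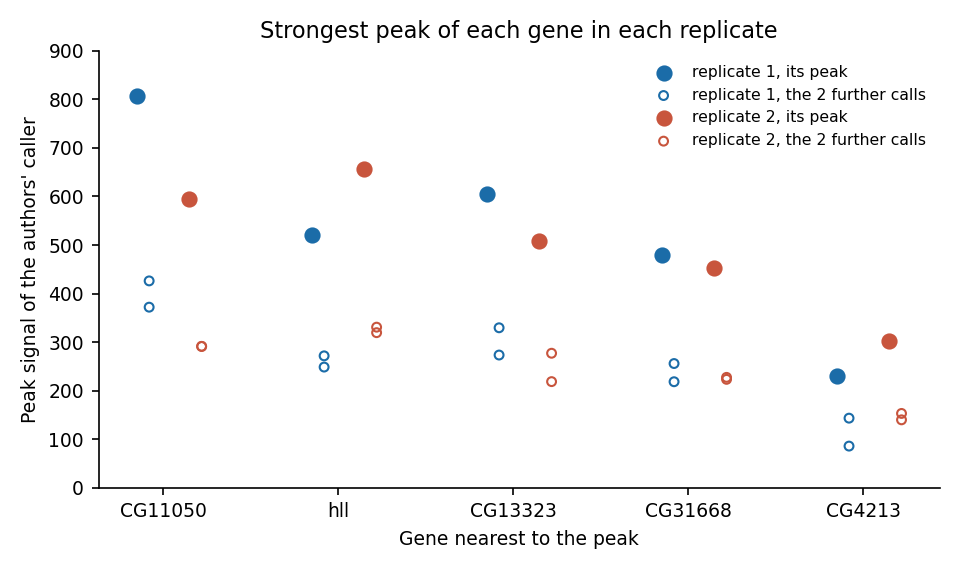
Signal (vertical axis, from 0, in the authors' units) of the strongest peak of each gene in replicate 1 (blue) and replicate 2 (red) as filled points, with the 2 further calls of that replicate as open points. CG11050, CG13323 and CG31668 are higher in replicate 1 and hll and CG4213 in replicate 2, and the open points of the replicates are separate only at CG11050 and hll.

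**Figure D4:**
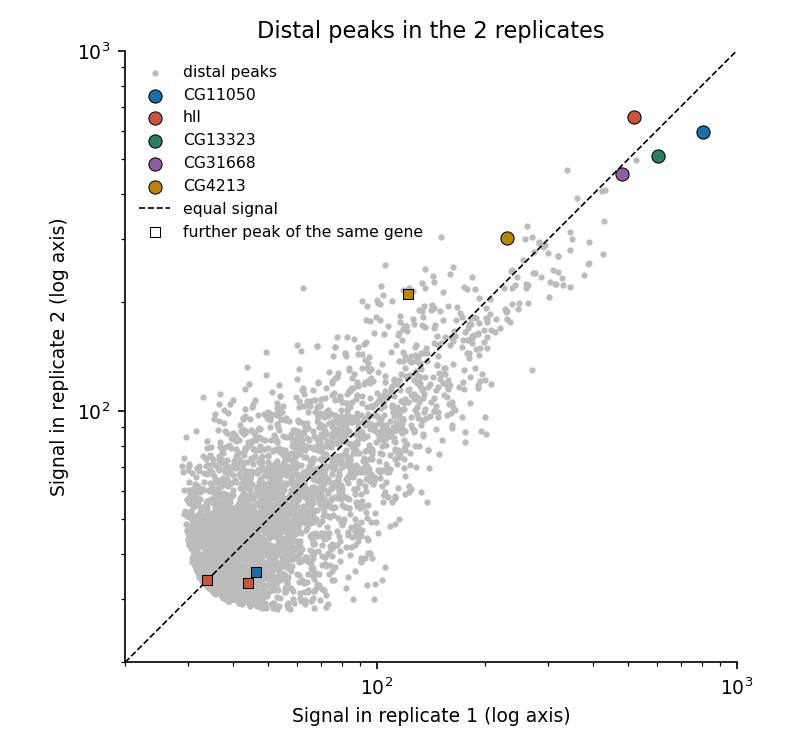
Signal in replicate 2 against signal in replicate 1 (both log axes) for distal peaks with a candidate in both (grey), the strongest peak of each gene (coloured circles) and further peaks (coloured squares, of which the CG11050 square is the promoter peak). The 5 circles lie near the dashed line of equal signal, from 231 and 302 at CG4213 to 806 and 595 at CG11050, and the hll and CG11050 squares lie between 33.3 and 46.1 in both replicates.

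By place in the genome, 3 of the 5 strongest peaks (CG13323, CG31668 and CG4213) lay beyond the 3' end of the gene they were assigned to, against 17.5% of all distal peaks (597 of 3416). The CG11050 peak lay within its gene, as 53.7% of distal peaks did, and the hll peak upstream, as 28.8% did. The 4 other than CG11050 were intergenic with respect to protein-coding genes, against 31.6% of distal peaks, whereas introns held 64.2%. Of the 5 genes 4 were on chromosome arm 2L, which held 18.4% of distal peaks. Since the 5 genes were picked, these counts of place describe them and not strong distal peaks at large. Peak widths ran from 236 to 309 bp for the strongest peaks, and the 100 strongest distal peaks had a median of 200 bp and 0 peaks of the common 330 bp. Of the 8 distal peaks of the 5 genes, 6 were in both replicates' own thresholded lists, against 39.7% of all distal peaks (1357 of 3416), from which nothing is read, since the genes were picked for signal.

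A search for 20 short sites on both strands within 100 bp of each summit found little in common. The LIM-homeodomain core was TAATTA, with CTAATTAG as its extended palindrome. Controls with as many A and T letters were AATATT, then TTTAAA and, beside these, AAATTT as well as TTATAA. The boundary and promoter factor DREF was searched as TATCGATA, the GAGA factor protein as GAGAG, and the promoter factor M1BP as GGTCACA. Among developmental regulators, the forkhead core was TGTTT, the K50 homeodomain site TAATCC, the Zelda site CAGGTAG and the Grainyhead site ACCGGT. The Caudal site was TTTATGG, the Su(H) site GTGGGAA, the site of GATA factors GATAAG and the site of TALE homeodomain proteins TGACAG. The E-boxes searched were CACCTG and, separately, CAGCTG. The last site was ACAGTG, a hexamer taken from earlier results on these summits. CTAATTAG contains TAATTA, and ACAGTG contains the reverse complement of CACTG. Distal peaks held a median of 2 of these sites. CG11050 and hll held 1 each, CG13323 2, CG4213 3 and CG31668 5 at their strongest summits. A match is a string of letters in a window and shows no binding by the named factor.

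TAATTA stood at 2 of the 5 strongest summits, CG11050 and CG4213, and at the third hll peak. Its share was 20.3% of all distal peaks and 17% of the 100 strongest. Of the controls, AATATT stood in 23.5% of distal peaks, the control TTTAAA in 21.6%, the control AAATTT in 19.4% and the control TTATAA in 13%. TTTAAA also stood at 2 of the 5 strongest summits and at 3 of the 9 peaks, as many as TAATTA. The CG11050 window held 2 copies, and at least 2 occurred in 3.19% of distal peaks and 5% of the 100 strongest. The CG4213 window held 3 overlapping copies from -8 to 5, across the summit of the joint list. Replicate 1 placed its own summit at -12, outside these copies, and replicate 2 at -1. At least 3 copies occurred in 14 distal peaks (0.41%) and a copy over the joint summit in 41 (1.2%). Of the 100 strongest distal peaks, 2 held at least 3 copies and 1 held a copy over the summit. These copy thresholds match what the CG11050 and CG4213 windows held, so the shares describe the windows and support nothing. A K50 homeodomain site on the minus strand adjoined the CG4213 copies at -14 to -9.

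CACTG lay between 40 and 100 bp from the summit on both sides at CG11050 and CG31668, 2 of the 5 strongest peaks, against 5.91% of all distal peaks and 13% of the 100 strongest. At CG31668 the matches were at -97 to -93 and 84 to 88. On at least 1 side it was present at 3 of the 5, the third being CG13323 at -84 to -80, against 33.3% of all distal peaks and 52% of the 100 strongest. The CG4213 match at 24 to 28 was nearer to its summit. The hll summit window held neither CACTG nor TAATTA, and of the list it held only the forkhead core, at -35 to -31 and 87 to 91, which 65.5% of distal peaks held. Since CACTG was picked from these windows, its counts describe them and support nothing.

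**Figure D5:**
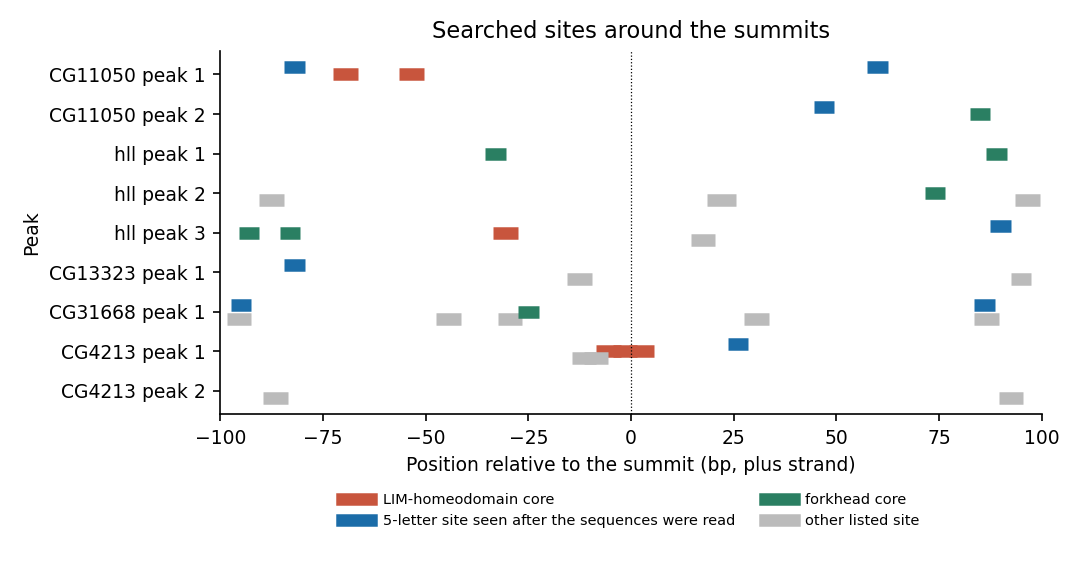
Searched sites (bars, in bp from the summit at 0 on the plus strand) within 100 bp of the 9 summits, 1 row per peak, with TAATTA in red, CACTG in blue, the forkhead core in green and the other listed sites in grey. The red bars lie left of the CG11050 summit and across the CG4213 summit, and the blue bars flank the CG11050 and CG31668 summits.

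Base composition differed among the windows as much as over distal peaks at large. The GC content was 33.3% at CG11050, 41.3% at hll, 36.8% at CG13323, 29.4% at CG31668 and 49.8% at CG4213, against a median of 39.8% over distal peaks with quartiles of 33.8% and 45.8%. CG11050 and CG31668 were thus below the lower quartile and CG4213 above the upper one. The share of bases soft-masked in the assembly as repeats was highest at CG31668, at 42.3%, where the median over distal peaks was 16.4%. None of the 9 windows had another match of at least 90% identity over at least 80% of its length in the assembly. Shorter similar stretches, 61 of them and up to 86 bp long, were found for the strongest hll window and for none of the other 8. Whether repeat content, base composition or the mapping of reads to these windows bears on the signal was not tested.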

How the data were processed

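Peaks were on the dm6 build, per the labels. The authors deposited a signal value per peak from their caller, a score up to 1000 that rises with reproducibility between replicates, and the offset of the summit from the peak start. No source used here gives the aligner, the caller or the scaling of the signal. Every conservative peak had a score of at least 830. The members and site lists were chosen with earlier results of these data known. Summits were assigned to the nearest protein-coding transcript start (Ensembl BDGP6.54), and genes were named by a rule covering the 5 genes, annotation at or beside their strongest summits, and neighbours in rank. Replicate values were the strongest overlapping peak (1 bp or more) in each replicate's ranked list. In the series' lists 16 further columns of per-sample values were not used. Sequence came from the RefSeq Release 6 assembly, copies from blastn 2.17.0 and the calculations used Python 3.11.15 with numpy 2.4.6. Site search and nearest-start assignment were tested on simulated data. No test was run, and alternatives changed a single choice at a time. Precision is limited by 2 replicates, since no read totals are given.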

Additional observations from a re-analysis of the deposited data

How the results depend on the processing

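Of 127 values under alternatives, 37 moved beyond the spread between replicates or, for counts, past 1.5 times. All 15 alternatives of a log2 ratio between replicates kept its sign and stayed within the spread. With the nearest summit or the thresholded lists the ratios were identical, and division by each replicate's median shifted every ratio by the same amount. This stability therefore says little about the ratios. With either replicate left out, the signals ranged from 594.5 to 806 at CG11050, 519.7 to 656 at hll, 509 to 605 at CG13323, 453 to 480.3 at CG31668 and 231 to 302 at CG4213, all lower than the joint signal. The scaling of the joint signal is not stated, but at each of the 5 strongest peaks it was close to the 2 replicate signals added together. A single replicate was therefore bound to be lower there. These moves, counted among the 37, therefore do not show dependence on a replicate. Distances to the start then ranged from 1021 to 1022 bp at CG11050, 2912 to 2923 bp at hll, 3753 to 3760 bp at CG31668 and 9295 to 9306 bp at CG4213. Ranks ranged from 1 to 2 for CG11050, 1 to 4 for hll, 2 to 3 for CG13323, 5 to 6 for CG31668 and 15 to 57 for CG4213. Peaks per gene ranged from 1 to 3 for CG11050 and 1 to 2 for hll.

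Gene starts in place of transcript starts gave 1709 bp for CG11050 and 9438 bp for CG4213. A 250 bp distance put CG13323 at rank 4 and CG31668 at 6, and starts of any gene type put them at 2 and 4, with no rank for hll. The series' ranked list past the same score, chosen after seeing the data, put them at 4 and 7. Starts of any gene type left 1 peak to hll and 0 to CG4213, and the broader list gave CG31668 2. Sites present became 0 at CG11050 and 1 at CG13323 within 50 bp, and 2 at CG11050, 2 at hll and 5 at CG4213 within 200 bp. Within 1000 bp, 2 peaks had a noncoding start. The cause was not tested. No paired analysis was possible because there is a single group. Depth is unknown, so no counting interval can be given.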
